A study of Rattus norvegicus with 15 samples.

Results

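The miR-17-92 and miR-106b-25 clusters are related groups of microRNAs (miRNAs), and their members were followed here across 3 groups of rat hearts. The members were chosen by name, as the array's own miRNA names equal to rno-miR-17, rno-miR-18a, rno-miR-19a, rno-miR-20a, rno-miR-19b, rno-miR-92a, rno-miR-106b, rno-miR-93 or rno-miR-25 (rno for rat, left out hereafter), with all their probes and without the minor (star) arms. These were 9 of the 350 rat miRNAs on the array, 6 of miR-17-92 and 3 of miR-106b-25. All 9 passed the filter on dim signals, but miR-18a passed only through the GF arrays and stayed near the floor of the assay.

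The study compared the heart miRNA profile in diabetes whose plasma glucose swings with that in steadily hyperglycaemic diabetes. All hearts were from male Sprague-Dawley rats, a common outbred stock. GF rats were diabetic animals in which glucose fluctuation was produced with a fast of 24 h and intraperitoneal insulin at 0.5 IU/kg. DM rats were diabetic only, after streptozotocin at 60 mg/kg into the tail vein, with plasma glucose above 300 mg/dL, and GF rats had the same streptozotocin treatment. Veh rats were exposed to vehicle. Streptozotocin is a toxin of the insulin-producing cells of the pancreas, so it is a model of insulin deficiency. Fasting, insulin and swings of glucose came together in GF and cannot be told apart.

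A miRNA is cut from a hairpin transcript and guides a silencing complex to messenger RNAs, mainly through its seed, bases 2 to 8. miR-17-92 is transcribed as 1 precursor that holds several hairpins. It is known as an oncogenic cluster, an activated target of Myc, and a promoter of cell growth and survival; in the mouse it is needed for normal heart and lung development and has been tied to cardiomyocyte proliferation. miR-106b-25 is its paralogue, lies within the gene for the replication helicase subunit Mcm7, and shares seeds with miR-17-92.

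The sequences of all 9 members matched an entry of RefSeq (build GRCr8) and are shown because the members fall into families by seed, and each family except those of miR-18a and miR-19 has members in both clusters. Capitals mark the seed. The unstarred names of the array were read as the main arm, which is the 5p arm for miR-17, miR-18a, miR-20a, miR-106b and miR-93, and the 3p arm for the others. The first 4 below share 1 seed, and miR-18a differs from miR-17 by 1 base of the seed (A4G, miR-17's base first, counted from 1 at the 5′ end). The next 2 share the miR-19 seed, and the last 2 the miR-92 seed.
miR-17: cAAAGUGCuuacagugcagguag
miR-20a: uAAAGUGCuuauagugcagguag
miR-106b: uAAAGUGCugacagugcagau
miR-93: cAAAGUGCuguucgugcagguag
miR-18a: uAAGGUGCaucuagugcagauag
miR-19a: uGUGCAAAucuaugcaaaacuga
miR-19b: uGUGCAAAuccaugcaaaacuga
miR-92a: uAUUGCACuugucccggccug
miR-25: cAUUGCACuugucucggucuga

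Several of these sequences are close enough to matter for an assay by hybridization. miR-19a and miR-19b differ at 1 of 23 bases (U11C), and miR-17 and miR-20a at 2 of 23 (C1U and C12U). miR-92a and miR-25 differ at 3 of the 21 bases compared (U1C, C14U and C18U). Whether each probe read its own miRNA alone was not tested.

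In GRCr8 the 6 hairpins of miR-17-92 lie within 785 bases of chromosome 15 (98587848 to 98588632, plus strand), in the order Mir17, Mir18a, Mir19a, Mir20a, Mir19b1 and Mir92a1. The 3 hairpins of miR-106b-25 lie within 494 bases of chromosome 12 (22156641 to 22157134, minus strand), inside the span of Mcm7 (22155921 to 22163320). Another cluster, miR-106a-363, lies on chromosome X (137342777 to 137343647) with 5 hairpins. It encodes second copies of mature miR-17, miR-19b and miR-92a, so the arrays cannot assign the signal of these 3 members to 1 locus. In the same annotation miR-18a, miR-19a and miR-20a each come from 1 locus.

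There were 15 one-colour arrays, 5 per group, on 2 slides that each held all 3 groups. The labels do not say that every array held a separate animal, so a p-value here is set by how much the deposited samples vary, and part of that variation may be technical. In 5 pairs, 2 arrays of 1 group on different slides differed by less than the error the scanner software states (reduced chi-square 0.243 to 0.630, against 1.07 to 7.70 in the other 100 pairs), and each pair was averaged and counted once. This left 10 distinct samples: 3 GF (replicates 1 and 5, replicates 2 and 4, replicate 6), 3 DM (replicate 1, replicates 2 and 4, replicates 3 and 5) and 4 Veh (replicates 1 and 3, replicate 2, replicate 4, replicate 5). Veh replicate 5 stood apart from its group: its chi-square was 1.15 against DM replicate 1 but 3.25 to 4.09 against the other Veh arrays. Results below are also given without Veh replicate 5. DM replicates 3 and 5 stood apart too. Their chi-square was 4.87 to 5.59 against the other DM arrays, but 2.53 to 3.63 against the GF arrays. The heart miRNAs miR-1, miR-133a, miR-133b, miR-208 and miR-499 were well above background on all 15 arrays, and miR-122 of liver, miR-124 of neurons and miR-375 of islets on 0. Values are log2 of the background-subtracted signal after division of each array by its own 75th percentile; 165 miRNAs were tested. The tests are limma fits over all 165, two-sided, with Benjamini-Hochberg adjustment and a threshold of 0.05, and n is 3 GF, 3 DM and 4 Veh samples throughout.

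In GF hearts, compared with Veh hearts, the 5 miR-17-92 members measured well above background were all brighter, by 0.38 to 0.56 on the log2 scale, or 1.30-fold to 1.47-fold. miR-20a and miR-19b rose past the threshold, 2 of the 9 members, and 0 members fell. Among all 165 tested miRNAs, 3.03% were called higher and 4.85% lower in this comparison. The 3 miR-106b-25 members ran from -0.23 to 0.02. The median difference was 0.45 over the 6 miR-17-92 members, -0.05 over the 3 miR-106b-25 members, and -0.05 over all tested miRNAs.

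**Figure D1:**
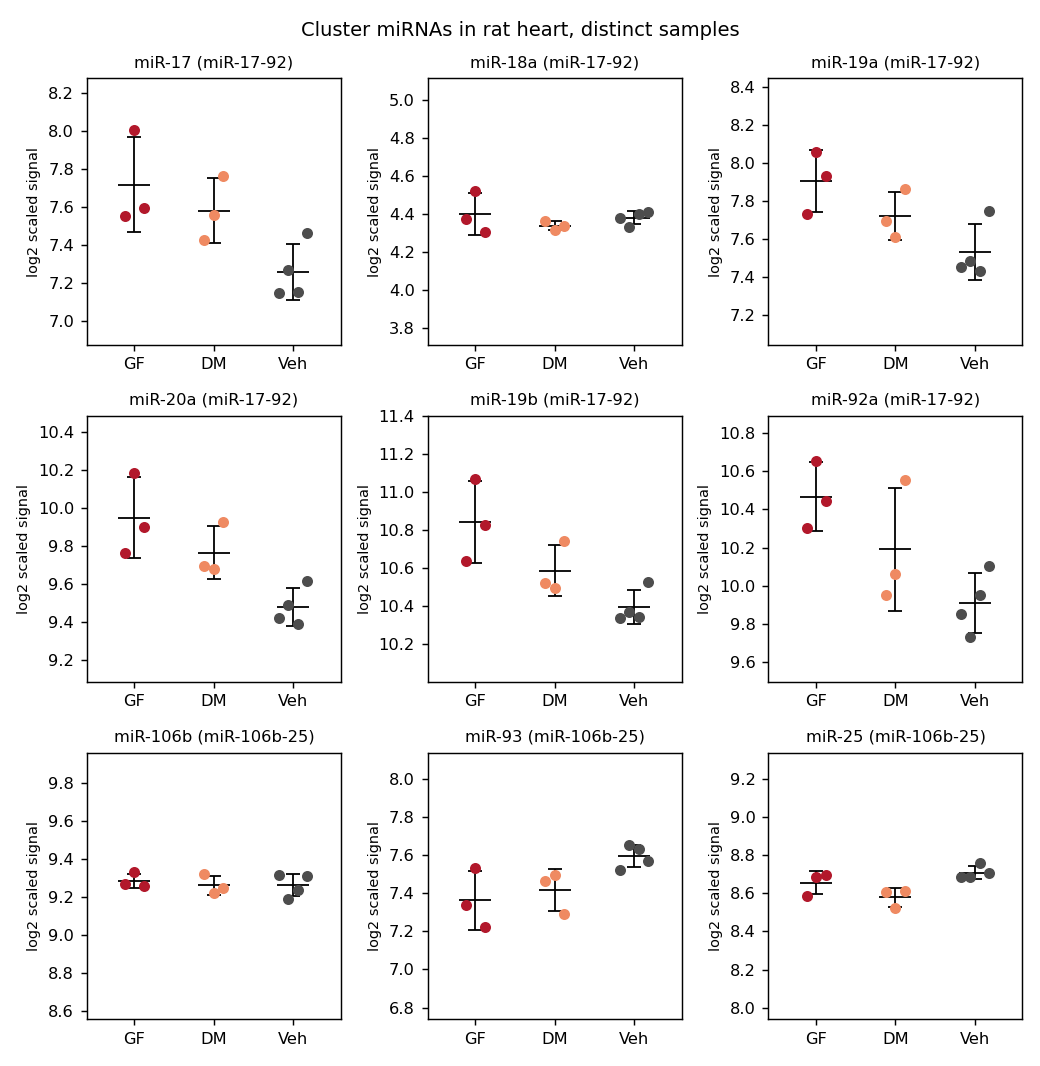
Log2 scaled signal of each member (y axis; every panel spans the same 1.4 log2 units) in the GF, DM and Veh distinct samples. Points are samples, and bars are the mean ± SD. In miR-17, miR-20a, miR-19b and miR-92a all GF points lie above all Veh points, while miR-106b lies between 9.19 and 9.33 over all 10 samples.

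Of the miR-17 seed family in miR-17-92, miR-20a passed the threshold. miR-20a, whose known targets include the cell cycle factors of the E2F family, had a log2 signal of 9.76, 10.19 and 9.90 in GF samples, 9.69, 9.68 and 9.93 in DM samples, and 9.42, 9.49, 9.39 and 9.62 in Veh samples. Every GF sample and every DM sample was above every Veh sample. In GF over Veh it rose by 0.47 on the log2 scale (SE 0.11, 95% interval 0.21 to 0.72, limma adjusted p = 0.0365), a 1.38-fold change. Its second probe, dimmer but well above background on all 15 arrays, gave a GF minus Veh difference of 0.41.

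miR-17, the first hairpin of the cluster, is known as a regulator of the cell cycle inhibitor p21. miR-17 had a log2 signal of 7.55, 8.002 and 7.59 in GF samples, 7.42, 7.55 and 7.76 in DM samples, and 7.15, 7.26, 7.15 and 7.46 in Veh samples. The GF samples did not overlap the Veh samples, and the gap between the lowest GF and the highest Veh sample was 0.09. The GF minus Veh difference was 0.46 (SE 0.13, 95% interval 0.16 to 0.76) and did not pass the threshold (limma adjusted p = 0.0605). The second miR-17 probe was well above background on only 3 of 15 arrays and gives no separate reading.

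The miR-19 pair, known in mouse lymphoma as the main oncogenic part of the cluster, was brighter in GF in both members. miR-19b had a log2 signal of 10.64, 11.07 and 10.83 in GF samples, 10.52, 10.50 and 10.74 in DM samples, and 10.34, 10.37, 10.34 and 10.53 in Veh samples. All GF samples were above all Veh samples, the highest of which was Veh replicate 5. In GF over Veh miR-19b rose by 0.45 (SE 0.11, 95% interval 0.20 to 0.70, limma adjusted p = 0.0371), a 1.37-fold change, and its second probe gave 0.38. With the close pairs of arrays kept apart as a random block, its limma adjusted p was 0.0510, so the call is lost there.

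miR-19a had a log2 signal of 7.73, 8.06 and 7.93 in GF samples, 7.69, 7.61 and 7.86 in DM samples, and 7.45, 7.49, 7.43 and 7.75 in Veh samples. Veh replicate 5 at 7.75 was above the lowest GF sample, so the groups overlapped, while the other 3 Veh samples lay below every GF and DM sample. The GF minus Veh difference was 0.38 (SE 0.11, 95% interval 0.13 to 0.63, limma adjusted p = 0.0612), short of the threshold, and the second probe gave 0.34.

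miR-92a, the last hairpin of the cluster, is known to restrain vessel growth through the integrin subunit alpha 5 in mice. miR-92a had a log2 signal of 10.30, 10.66 and 10.45 in GF samples, 9.95, 10.06 and 10.56 in DM samples, and 9.85, 9.73, 9.95 and 10.10 in Veh samples. GF lay above Veh without overlap, and DM overlapped both groups. Its GF minus Veh difference was 0.56 (SE 0.16, 95% interval 0.21 to 0.91), with a limma adjusted p of 0.0548, and its second probe gave 0.51. Over the 9 probes of these 5 members that were well above background on all 15 arrays, the GF minus Veh difference was above 0 in 9, from 0.34 to 0.56. Probes of the same member read the same samples, so these are not separate results.

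miR-18a, a member known to target connective tissue growth factor, was barely measured. Its log2 signal was 4.38, 4.52 and 4.31 in GF samples, 4.36, 4.32 and 4.33 in DM samples, and 4.38, 4.33, 4.40 and 4.41 in Veh samples, against a floor of 4.31. It was well above background on 3 GF arrays, 0 DM arrays and 2 Veh arrays, and its other probe on 0. The GF minus Veh difference was 0.02 (95% interval -0.14 to 0.18), a range near the floor in which a change could not be resolved. No fold is given for this member.

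Of all 165 tested miRNAs, 7.88% had every GF sample above every Veh sample, and 4 of the 9 members did: miR-17, miR-20a, miR-19b and miR-92a. Every GF sample was below every Veh sample in 18.8% of tested miRNAs and in 0 members. At an unadjusted p under 0.05, 6 of the 9 members passed, against 30.9% of all tested miRNAs. The sixth was miR-93, in the lower direction.

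The miR-106b-25 members share seeds with miR-17-92, and 0 of the 3 passed the threshold in GF against Veh. miR-106b, of the miR-17 seed family, had a log2 signal of 9.27, 9.33 and 9.26 in GF samples, 9.32, 9.22 and 9.25 in DM samples, and 9.31, 9.19, 9.24 and 9.31 in Veh samples. These values interleave. Its GF minus Veh difference was 0.02 (SE 0.07, 95% interval -0.12 to 0.17, limma adjusted p = 0.865), and it was 0.34 with no scaling between arrays.

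miR-93, the middle hairpin of the cluster, had a log2 signal of 7.34, 7.53 and 7.22 in GF samples, 7.46, 7.50 and 7.29 in DM samples, and 7.52, 7.66, 7.63 and 7.57 in Veh samples. The DM samples lay below every Veh sample, and 1 GF sample reached the Veh range. The GF minus Veh difference was -0.23 (SE 0.09, 95% interval -0.43 to -0.03) and did not pass (limma adjusted p = 0.126). With no scaling between arrays it was 0.09, so the direction depends on the scaling.

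miR-25, of the miR-92 seed family, is known in the heart as a repressor of the calcium pump SERCA2a in the mouse. miR-25 had a log2 signal of 8.59, 8.69 and 8.70 in GF samples, 8.61, 8.52 and 8.61 in DM samples, and 8.69, 8.69, 8.76 and 8.71 in Veh samples. GF and Veh overlapped, with a GF minus Veh difference of -0.05 (95% interval -0.20 to 0.09, limma adjusted p = 0.615) that was 0.27 with no scaling. The second probe of miR-25 gave -0.13, and the second probe of miR-106b gave 0.04; that of miR-93 was well above background on 2 arrays only.

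In DM hearts, compared with Veh hearts, 0 of the 9 members passed the threshold, as did 0% of all tested miRNAs in either direction with limma on the distinct samples. At an unadjusted p under 0.05, 2 members passed, miR-17 and miR-20a, against 8.48% of all tested miRNAs; the fit of all 15 arrays also called 0 members (and the fit without Veh replicate 5 called 0), and 1.82% of all tested miRNAs lower. The DM minus Veh differences of the 5 measured miR-17-92 members ran from 0.19 to 0.32, and their GF minus Veh differences from 0.38 to 0.56. miR-17 had 0.32 (SE 0.13, 95% interval 0.02 to 0.62, limma adjusted p = 0.483), and miR-20a 0.29 (SE 0.11, 95% interval 0.03 to 0.54, limma adjusted p = 0.483).

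For the other measured members of miR-17-92, DM minus Veh was 0.28 for miR-92a (95% interval -0.07 to 0.63), 0.19 for miR-19a (-0.06 to 0.44) and 0.19 for miR-19b (-0.06 to 0.44). All 3 intervals include 0. Without the averaged DM replicates 3 and 5, DM minus Veh was 0.097 for miR-92a, 0.12 for miR-19a and 0.23 for miR-17. Every DM sample was above every Veh sample for miR-20a, as in 1.82% of tested miRNAs, and every DM sample was below every Veh sample for miR-25 and miR-93, as in 4.24%. The DM minus Veh difference was -0.13 for miR-25 (SE 0.06, 95% interval -0.27 to 0.01) and -0.18 for miR-93 (SE 0.09, 95% interval -0.38 to 0.02). For miR-106b it was -0.00 (95% interval -0.15 to 0.15).

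GF was set against DM to ask what the fast, the insulin and the glucose swings together add to sustained hyperglycaemia. Again 0 of 9 members passed, with 0% of all tested miRNAs called in either direction (with 15 arrays, 0 members, against 3.64% of all tested miRNAs called lower), and 0 members had an unadjusted p under 0.05, against 10.9% of all tested miRNAs. The 5 measured miR-17-92 members had GF minus DM differences of 0.14 to 0.28. No member's groups were free of overlap. Of all tested miRNAs, 1.82% had every GF sample above every DM sample, and 12.7% had every GF sample below. miR-92a differed by 0.28 (SE 0.17, 95% interval -0.10 to 0.65, limma adjusted p = 0.495), and miR-19b by 0.26 (SE 0.12, 95% interval -0.01 to 0.52, limma adjusted p = 0.407). The intervals of miR-25 (-0.08 to 0.23), miR-93 (-0.27 to 0.16) and miR-106b (-0.13 to 0.18) all include 0. GF minus Veh and DM minus Veh share the Veh samples, so their values are given side by side and not as independent results.

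**Figure D2:**
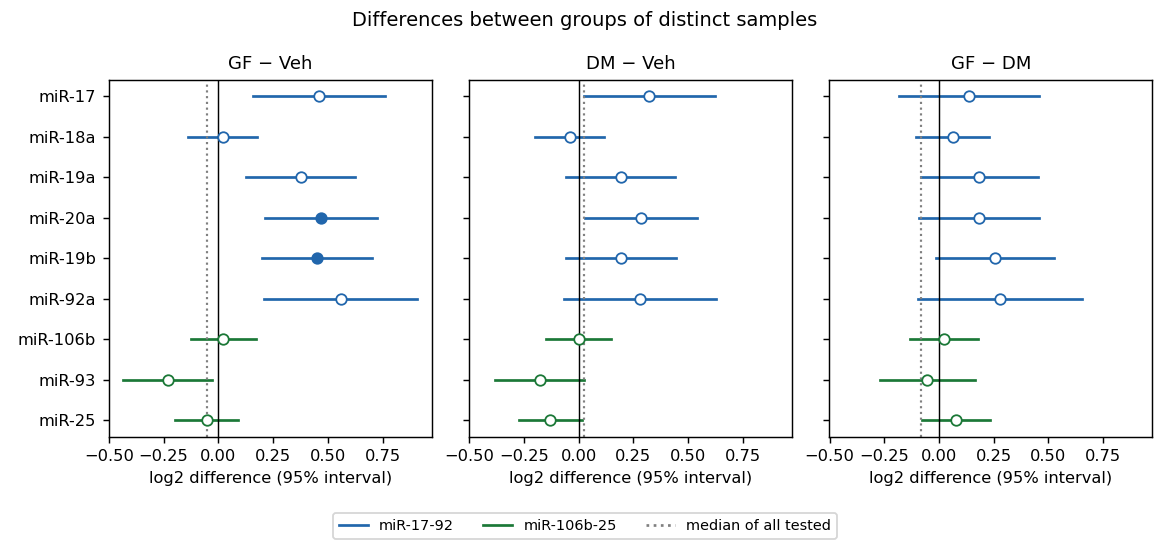
Log2 difference (x axis) of each member (rows, in the order of the hairpins) for GF minus Veh, DM minus Veh and GF minus DM, with 95% intervals. Filled points are past an adjusted p of 0.05, which only miR-20a and miR-19b in GF minus Veh are; the dotted line is the median of all 165 tested miRNAs.

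Within samples the measured miR-17-92 members varied together. Over the 10 distinct samples, the Pearson correlations of their 10 pairs ran from 0.91 to 0.98. The 3 pairs within miR-106b-25 ran from -0.08 to 0.37, and the 15 pairs between the clusters from -0.65 to 0.40. These are descriptions: all values of a sample share its RNA and its scaling, and the groups themselves differ. The same sample was the highest of its group in all 5 measured miR-17-92 members in each group: the averaged GF replicates 2 and 4, the averaged DM replicates 3 and 5, and Veh replicate 5. In miR-106b-25 no sample held that place in all 3 members of a group.

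The difference between the clusters within a sample does not depend on scaling between arrays. It was taken as the mean log2 signal of the 5 measured miR-17-92 members minus that of the 3 miR-106b-25 members, relative to the mean of the Veh samples. It was 0.41, 0.69 and 0.55 in GF samples, 0.20, 0.27 and 0.59 in DM samples, and -0.06, -0.03, -0.08 and 0.17 in Veh samples. All GF and DM samples lay above all Veh samples, Veh replicate 5 again being the highest of its group. The group means were 0.55 ± 0.14 in GF (SD, n = 3), 0.36 ± 0.21 in DM (SD, n = 3) and 0 ± 0.12 in Veh (SD, n = 4). This is a description of the chosen members and was given no test.

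**Figure D3:**
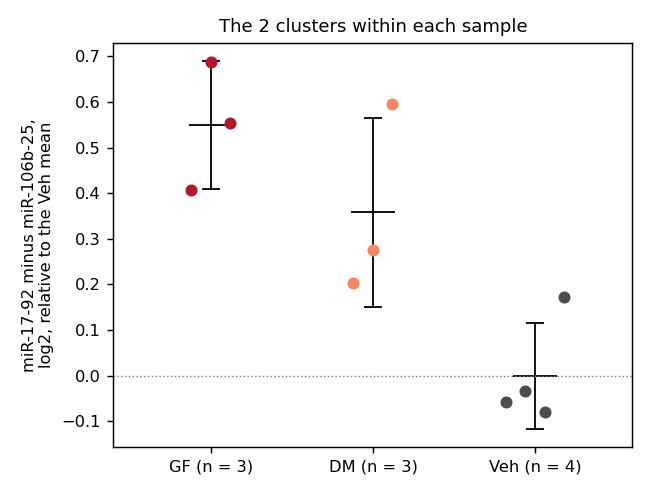
Mean log2 signal of 5 miR-17-92 members minus that of the 3 miR-106b-25 members in each sample, relative to the Veh mean (y axis), by group; bars are the mean ± SD. GF samples run from 0.41 to 0.69, and Veh samples from -0.08 to 0.17.

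Members with the same seed thus had different values in the same samples. In the miR-17 seed family GF minus Veh was 0.47 for miR-20a and 0.46 for miR-17 of miR-17-92, against 0.02 for miR-106b and -0.23 for miR-93 of miR-106b-25. In the miR-92 seed family it was 0.56 for miR-92a and -0.05 for miR-25. These differences between members were not tested.

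Outside the clusters, 6 miRNAs on the array belong to miR-106a-363 or share a member's seed, and 1 of the 6 was tested. miR-20b-5p, a product of chromosome X alone, was well above background on 0 arrays, and miR-363, from the same cluster, on 2. miR-92b was above background on 0 arrays. miR-32, which has the miR-92 seed, was well above background on 8 of 15 arrays, 2 of them GF. Its log2 signal was 4.35, 4.37 and 4.31 in GF samples, 4.86, 4.65 and 4.35 in DM samples, and 4.52, 4.58, 4.56 and 4.80 in Veh samples, all near the floor of 4.31, and its limma adjusted p for GF against Veh was 0.154.

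The other arms of the members' hairpins were mostly below background. Of the 4 such arms on the array, only miR-20a* was tested, and miR-17-3p, miR-25* and miR-106b* were well above background on 0 arrays. The hairpin of miR-20a shows the pair of arms, both in capitals, miR-20a on the left and miR-20a* on the right, on chromosome 15 (98588303 to 98588387, plus strand, GRCr8).
Mir20a: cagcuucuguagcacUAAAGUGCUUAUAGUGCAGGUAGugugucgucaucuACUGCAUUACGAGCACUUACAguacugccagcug
The miR-20a* signal was well above background on 6 of 15 arrays, 3 of GF, 2 of DM and 1 of Veh, so it passed the filter only through GF. Its log2 signal was 4.34, 4.53 and 4.42 in GF samples, 4.33, 4.34 and 4.75 in DM samples, and 4.32, 4.31, 4.31 and 4.31 in Veh samples, where 3 of the 4 sat at the floor, so no difference is given.

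The tested miRNAs outside the clusters were compared, across the 10 samples, with the mean of all 6 miR-17-92 members, miR-18a included. Those most like it were miR-101a (Pearson r = 0.89), miR-200c (0.88) and miR-141 (0.87). All 3 were themselves called higher in GF against Veh, by 0.43, 2.59 and 2.40 (limma adjusted p = 0.0192 each). The difference between the groups thus enters these correlations. For miR-106b-25 the most alike were miR-335 (0.65), miR-144 (0.62) and miR-503 (0.61). These are the 3 highest of the tested miRNAs for each cluster and carry no p.

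Markers of other cell types were set beside the members. In these whole-heart samples, fewer cells of a type and less RNA per cell cannot be told apart. The summed signal of the red cell miRNAs miR-144 and miR-451 ran from 4598 to 5935 in GF, 3445 to 6166 in DM and 6144 to 7340 in Veh samples. In GF against Veh 0 of 2 passed the threshold. Most of each sum was miR-451, at 4350 in the averaged GF replicates 1 and 5 beside 664 for miR-144. The summed signal of 6 leukocyte miRNAs ran from 5097 to 5835 in GF, 5438 to 6698 in DM and 6388 to 6653 in Veh samples, and 3 of the 6 fell in GF against Veh (miR-142-5p, miR-146a and miR-342-3p).

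One leukocyte marker went the other way: miR-223, a myeloid miRNA, had a GF minus Veh difference of 0.52 (95% interval 0.18 to 0.85, limma adjusted p = 0.0605). Of the endothelial miRNAs miR-126, miR-126*, miR-221 and miR-222, miR-222 was well above background on 0 arrays. Together they summed to 15769 to 17118 in GF, 17635 to 20965 in DM and 19439 to 23956 in Veh samples. Among the 3 tested, 0 passed the threshold. Most of each sum was miR-126, at 16298.5 in the averaged GF replicates 1 and 5 beside 642 for miR-126* and 158 for miR-221. Smooth muscle miR-143 and miR-145 summed to 14198 to 18160 in GF, 14729 to 16447 in DM and 11674 to 18915 in Veh samples. Of these 2, 0 passed the threshold. Most of that sum was miR-143, at 18090 in the same averaged GF replicates beside 70 for miR-145. Of the 5 muscle miRNAs 1 fell in GF, miR-208. The part of any of these in the values of the clusters was not tested.

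The raw brightness of the arrays, which enters every scaled value, is set beside these. The 75th percentile of the signal was 2780 ± 529 in GF (SD, n = 3), 2027 ± 256 in DM (SD, n = 3) and 2205 ± 261 in Veh (SD, n = 4). GF exceeded Veh by 575 (two-sided exact permutation p = 0.171, from only 3 GF and 4 Veh samples). With no scaling the median of all tested miRNAs was 0.24 in GF minus Veh, and the 5 measured miR-17-92 members were all above it, at 0.70 to 0.88.

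The differences of the 5 measured miR-17-92 members in GF against Veh stayed above 0 in all 135 values under the other settings and sample choices, from 0.23 to 0.88. These are not 135 separate checks. Leaving out a DM sample or the filter on dim miRNAs cannot change a GF minus Veh difference, and the slide block repeats the differences of the 15 independent arrays. The number of members past the threshold in GF against Veh turned on single samples. It was 5 without Veh replicate 5, where 28 of all 165 tested miRNAs were called, and 5 without DM replicates 3 and 5, where 26 were. It was 3 without GF replicates 1 and 5, where 16 of the 165 were called, and 3 without DM replicate 1, where 17 were. The members' count was 0 without GF replicates 2 and 4, without GF replicate 6, without DM replicates 2 and 4, without Veh replicates 1 and 3, without Veh replicate 2, or without Veh replicate 4. These fits called 0 of all 165 tested miRNAs, except 8 without GF replicate 6 and 10 without DM replicates 2 and 4, so the drop was not in the members alone. Without Veh replicate 5 the members called were miR-17, miR-19a, miR-19b, miR-20a and miR-92a, with differences of 0.45 to 0.62. Leaving out DM replicate 1 as well gave the same 5, and 31 of all 165 tested miRNAs were called there.

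The averaged GF replicates 2 and 4 were the highest sample of all 5, and without them miR-20a had a difference of 0.35 (limma adjusted p = 0.138) and miR-19b one of 0.34 (limma adjusted p = 0.153). With all 15 arrays taken as independent, which counts the close pairs as separate samples, 5 of the 9 members were called higher, against 12.7% of all tested miRNAs. Within slides the GF minus Veh difference of miR-20a was 0.55 on slide 1 (2 GF and 2 Veh arrays) and 0.45 on slide 2 (3 GF and 3 Veh arrays). For miR-19b it was 0.54 on slide 1 and 0.42 on slide 2, and for miR-92a 0.69 on slide 1 and 0.50 on slide 2. Within either slide alone 0 members passed the threshold, as did 0 of all 165 tested miRNAs. The close pairs join arrays of different slides, so the slides may not be independent.

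**Figure D4:**
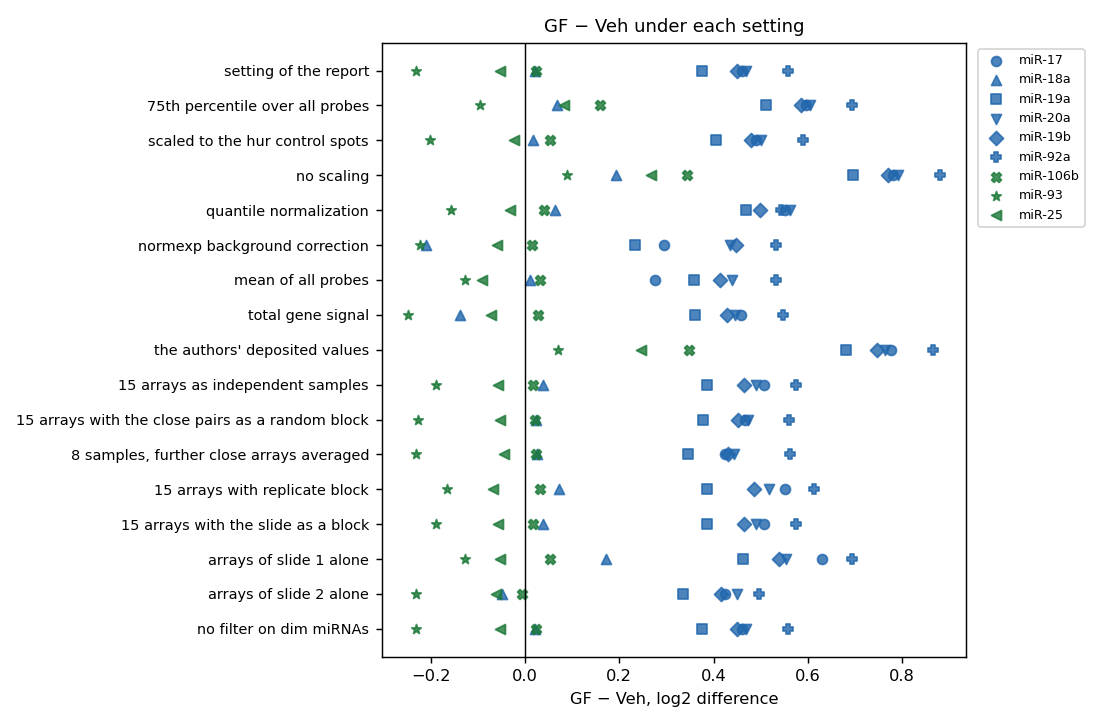
GF minus Veh log2 difference (x axis) of each member under the setting of the report and 16 others (rows), blue for miR-17-92 and green for miR-106b-25. The 5 measured miR-17-92 members lie above 0 in every row, while miR-18a, miR-93, miR-25 and miR-106b lie on both sides of 0 across rows.

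In the authors' deposited table of 35 miRNAs that differed over the 3 groups at an uncorrected p under 0.05, 3 members are listed, miR-17, miR-20a and miR-92a. These are 3 of the 8 members in the authors' deposited table of filtered miRNAs, beside 35 of its 149 miRNAs. Their p-values in the authors' deposited table are 0.0399, 0.0370 and 0.0200. The authors' deposited table gives GF over Veh log2 fold changes of 0.85 for miR-17, 0.81 for miR-20a and 0.91 for miR-92a, and DM over Veh log2 fold changes of 0.34, 0.27 and 0.32. These come from values with no scaling between arrays and from all 15 arrays, whereas the differences given above are scaled. The same 3 members are among the 30 miRNAs of the authors' deposited table for GF and Veh, and 0 members are in the authors' deposited tables for DM and Veh (5 miRNAs) or GF and DM (20 miRNAs).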

How the data were processed

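Heart RNA was measured on 15 one-colour Agilent rat miRNA arrays, read with Agilent Feature Extraction 9.5.3.1 per the submitters' processing notes and the file headers. Each deposited array file gives an intensity per spot with the background taken off, and a summed intensity per miRNA; arrays are unscaled. A table deposited by the authors with their 149 filtered miRNAs, which lists 8 of the 9 members (not miR-18a), holds log2 values. The authors' deposited tables of comparisons hold log2 fold changes and p-values; the headers name an uncorrected test of 3 groups. The arrays' number limits the precision; 166 to 190 miRNAs were detected per array.

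Flagged spots (153 to 294 per array) were dropped, and signals were divided by the 75th percentile that each array had over 254 probes, those above background everywhere. Signals under 19.8 (log2 4.31) were set to that floor. Repeated spots of a probe were averaged, and each miRNA was read from its brightest probe. Of 350 miRNAs, 165 passed the background filter (3 of the 5 arrays in any group) and were tested in R 4.3.3 with lmFit and eBayes of limma 3.58.1, after tests on simulated data. Arrays of a group with a reduced chi-square under 1 over 156 miRNAs were averaged. The mean spot signal is not used here, so normexp, an alternative, ran on the median signal. Figures used matplotlib 3.10.9 and numpy 2.4.6, under Python 3.11.15 with pandas 2.3.3. Brightness was compared with exact permutation tests. Replicate numbers were not treated as pairs. Over 13 same-number pairs the correlation of deviations ran from -0.47 to 0.46 (median 0.10), against -0.48 to 0.55 (median -0.02) over the 62 other pairs. These ranges overlap and do not settle whether the numbers pair the samples. The members, lists and sample averaging were chosen with earlier results of these data known. Every member is named; other miRNAs are named from the listed hairpin arms, seed relatives and cell markers, or as the 3 most alike per cluster. Mature sequences and coordinates are RefSeq's, build GRCr8.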

Additional observations from a re-analysis of the deposited data

Results flagged for a closer look

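In the 4 Veh samples, replicate 5 lay far above the others in 2 members. Its miR-19a log2 signal was 7.75, against 7.43 to 7.49 in the other 3, and its miR-19b log2 signal was 10.53, against 10.34 to 10.37. The gap to the nearest other sample was 0.837 of the group's whole range for miR-19a and 0.835 for miR-19b. Chance alone puts about 1 in 20 such groups past this limit, and the members vary together, so these are not separate signs.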

How the results depend on the processing

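The number of members past the threshold in GF against Veh was 2 in the report and 2 with quantile normalization or normexp. It was also 2 with the close pairs as a random block over 15 arrays, but there the members called were miR-20a and miR-92a (limma adjusted p = 0.0467 and 0.0121), not miR-19b (0.0510). It was 5 with the 75th percentile over all probes, with no scaling, with 15 arrays as independent samples, with the slide as a block and without Veh replicate 5 and DM replicate 1 together (this last chosen after seeing the data). It was 5 with the replicate number as a block, although whether the numbers pair the samples is not settled. Averaging a miRNA's probes gave 4. It was 0 with scaling to the hur control spots, the total gene signal, the authors' deposited values, 8 samples after averaging further close arrays, slide 1 alone, slide 2 alone, or no filter on dim miRNAs. Leaving out 1 sample gave 0 to 5. Beside these, the calls among all 165 tested miRNAs were 13 in the report, 18 with the percentile over all probes or no scaling, 59, 57 and 51 over 15 arrays as independent, with the slide block and with the replicate block, 21 with averaged probes, 16 with the total gene signal, 2 with the hur spots, and 0 with 8 samples or either slide alone. They were 2 of 149 in the authors' deposited values and 0 of 350 with no filter. With quantile normalization 10 of the 165 were called, with normexp 13, and with the random block 16. Without Veh replicate 5 and DM replicate 1 together 31 of the 165 were called. In DM against Veh and GF against DM the number of members past the threshold was 0 under every setting run. The cause of each change was not tested.

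Differences that changed sign ran from -0.44 to 0.39 under the setting that turned them, and none was past the threshold. For miR-17, GF minus DM was -0.033 with normexp and -0.0061 to 0.23 with 1 sample left out. For miR-18a, near the floor, GF minus Veh was -0.21 with normexp, -0.14 with the total gene signal, -0.049 on slide 2 and -0.039 to 0.068 with 1 sample left out; DM minus Veh was 0.23 with normexp and 0.0059 on slide 1, and GF minus DM was -0.44 with normexp. For miR-25, GF minus Veh was 0.083 with the percentile over all probes, 0.27 with no scaling and 0.25 in the authors' deposited values, and GF minus DM was -0.019 with the hur spots and -0.0032 with normexp. For miR-93, GF minus Veh was 0.089 with no scaling and 0.071 in the authors' deposited values. Its GF minus DM was 0.070 with the percentile over all probes, 0.39 with no scaling, 0.013 with quantile normalization, 0.38 in the authors' deposited values, 0.0083 with the replicate block, 0.014 with the slide block, 0.021 on slide 1, 0.021 on slide 2 and -0.14 to 0.018 with 1 sample left out. For miR-106b, GF minus Veh was -0.0060 on slide 2 and -0.0021 to 0.040 with 1 sample left out. Its DM minus Veh was 0.013 with the percentile over all probes, 0.13 with the hur spots, 0.035 with normexp, 0.014 with its probes averaged, 0.020 on slide 1 and -0.028 to 0.020 with 1 sample left out. Its GF minus DM was -0.073 with the hur spots and -0.019 with normexp. The other members and comparisons kept their direction under every setting run. Signal near background limits miR-18a, miR-20a* and miR-32, and the 10 samples limit every interval.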
